A study of Mus musculus with 30 samples.

Results

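The genes described here encode the enzymes that attach glutathione, a sugar or a sulphate group to small molecules: the cytosolic glutathione transferases (Gst classes a, k, m, o, p, t and z), the microsomal ones (Mgst), the UDP-glycosyltransferases (Ugt1, Ugt2, Ugt3 and Ugt8) and the sulphotransferases (Sult). Members were chosen by symbol among the protein-coding genes of the count tables. They numbered 63 of 41128 genes, or of 22026 protein-coding genes, with 24 Gst and Mgst, 21 Ugt and 18 Sult genes. RNA was sequenced from kidneys and aortae of male mice after 18 weeks on a standard-fat diet (SFD) or a high-fat diet (HFD). The sample labels give the strain background as C57Bl6J, whereas the breeding protocol names C57BL/6 and C57BL/6N parents. Knockout (KO) mice carried floxed Egfr, the gene of the epidermal growth factor receptor, and a tamoxifen-inducible Cre under the smooth muscle promoter Smmhc. The wild-type (WT) animals had this Cre too but no loxP sites, and both genotypes received 1 mg tamoxifen per day for 5 days, 7 days before the diets began at 6 weeks of age. The deletion was thus directed at smooth muscle cells, which are a minor part of the cells of a kidney.

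The kidney data held 16 libraries, 4 in each of the groups WT-SFD, WT-HFD, KO-SFD and KO-HFD, with total counts of 16354880 to 28331314 and a median of 19544128. The aorta data held 14 libraries, 3 each in WT-SFD and KO-SFD and 4 each in WT-HFD and KO-HFD, with total counts of 6403699 to 13052870 and a median of 8998366. Libraries are named by group and mouse number, and 3 mice gave both tissues. Levels are read counts scaled to a common library size (FPM, the CPM of edgeR on TMM-scaled library sizes), and differences between groups are log2 fold changes from edgeR with p-values adjusted over all genes tested in that tissue. A gene was called where its adjusted p was under 0.05. The proximal tubule transporter Slc34a1 had a mean of 7484 FPM in kidney, and the smooth muscle actin Acta2 a mean of 6940 FPM in aorta. In aortae, Egfr had 46.6, 39.4 and 54.2 FPM in WT-SFD, 65.0, 56.9, 51.1 and 56.9 FPM in WT-HFD, 26.7, 35.5 and 28.0 FPM in KO-SFD and 27.5, 40.5, 39.6 and 33.3 FPM in KO-HFD. The 2 genotypes did not overlap on either diet, but the differences of -0.64 ± 0.167 (SE) on SFD and -0.70 ± 0.143 (SE) on HFD had adjusted p-values of 0.547 and 0.129 in edgeR. In kidneys, Egfr ranged from 36.9 to 58.4 FPM in WT mice and from 40.4 to 60.8 FPM in KO mice, and the genotypes overlapped on both diets. The rows of chromosomes 9, X and Y, of the mitochondrial genome and of the end of chromosome 8 hold no counts in either tissue. On chromosome 8 this covers all 526 genes that start at or beyond base 98675077. The members there, Gsta1, Gsta2 and Gsta4 on chromosome 9 and Sult5a1 on chromosome 8, had no measured value.

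Conjugation is the step of detoxification that makes lipophilic compounds more water-soluble, so that they can leave the cell through efflux transporters and be excreted in urine or bile. Glutathione transferases join the tripeptide glutathione to electrophiles, UDP-glucuronosyltransferases join glucuronic acid from UDP-glucuronic acid to hydroxyl, carboxyl or amino groups, and sulphotransferases transfer sulphate from the donor PAPS. In the kidney these enzymes are known above all from the proximal tubule, which takes up organic anions from the blood, clears glutathione conjugates as mercapturates and is itself a target of reactive metabolites.

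The 250 bases upstream of the start site are shown for 3 kidney genes that changed with the diet, Ugt2b34, Ugt3a1 and Gstm1, to let the regulatory sequence of a member that rose be read beside those of members that fell. The sequences are those of RefSeq on GRCm38.p6, read 5′ to 3′ on the strand of the gene. They lie at chr5:86906938-86907187 on the minus strand for Ugt2b34, chr15:9279579-9279828 on the plus strand for Ugt3a1 and chr3:108017974-108018223 on the minus strand for Gstm1. The RefSeq start of Ugt3a1 is 2941 bases downstream of the start of the gene in GENCODE, so its window lies within the GENCODE gene. Capitals mark a match to 1 of 4 motifs searched on both strands.
Ugt2b34: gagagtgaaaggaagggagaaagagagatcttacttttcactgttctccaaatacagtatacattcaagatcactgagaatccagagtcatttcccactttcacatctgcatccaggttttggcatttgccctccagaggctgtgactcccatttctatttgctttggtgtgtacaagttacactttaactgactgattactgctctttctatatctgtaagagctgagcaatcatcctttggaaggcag
Ugt3a1: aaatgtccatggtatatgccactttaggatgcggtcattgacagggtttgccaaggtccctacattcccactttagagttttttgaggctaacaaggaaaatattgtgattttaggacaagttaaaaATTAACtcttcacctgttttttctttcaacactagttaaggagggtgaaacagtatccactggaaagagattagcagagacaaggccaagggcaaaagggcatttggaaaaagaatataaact
Gstm1: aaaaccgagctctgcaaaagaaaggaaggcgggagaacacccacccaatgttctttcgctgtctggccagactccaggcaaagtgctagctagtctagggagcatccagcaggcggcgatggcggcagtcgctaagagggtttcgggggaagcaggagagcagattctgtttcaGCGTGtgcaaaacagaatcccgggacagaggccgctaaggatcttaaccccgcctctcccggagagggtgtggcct
The capitals in Ugt3a1 are the HNF1 half-site GTTAAT read on the other strand, 123 to 118 bases upstream of the start. Those in Gstm1 are the core of the xenobiotic response element, GCGTG, 76 to 72 bases upstream. Ugt2b34 held none of the 4 motifs in this window. Of the 63 members, 55 had such a window. GTTAAT was present in 13 of them (23.6%) and in 6.4% of all 32851 promoters. The nuclear receptor half-site AGGTCA was present in 10 (18.2%, against 14% of all) and GCGTG in 9 (16.4%, against 28.2%). The antioxidant response element core TGACNNNGC was present in 3 (5.5%, against 10.2%). GCGTG and TGACNNNGC can overlap, as they did in Gstm5. The members with GTTAAT are not independent. Sult2a3, Sult2a4, Sult2a5 and Sult2a6 lie in 1 cluster, and Ugt1a1, Ugt1a6a, Ugt1a9 and Ugt1a10 in another. Of these, the Sult2a genes, Ugt1a1 and Ugt1a9 had too few or no counts to be tested in kidney. A match is a description of letters and not a binding site.

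In the kidney, 37 of the 63 members had enough counts to be tested, 19 of 24 Gst and Mgst, 13 of 21 Ugt and 5 of 18 Sult genes. Of the other 26, 11 had no count in any kidney (Gsta1, Gsta2, Gsta4, Sult1c1, Sult2a2, Sult2a4, Sult2a5, Sult2a6, Sult2a7, Sult3a1 and Sult5a1, of which the 3 Gsta genes and Sult5a1 were not measured) and 15 had counts too low for the test (Gstm3, Gstt4, Sult1e1, Sult2a1, Sult2a3, Sult4a1, Sult6b1, Ugt1a1, Ugt1a5, Ugt1a8, Ugt1a9, Ugt2a1, Ugt2b1, Ugt2b35 and Ugt2b36). Ugt1a1, the bilirubin glucuronosyltransferase, had at most 10 counts in any kidney, and the hydroxysteroid sulphotransferase Sult2a3 at most 16. In FPM per kilobase of exon not shared with another gene, Ugt3a2 had the highest median over the 16 kidneys, 448 with a range of 366 to 543, and it also had the lowest coefficient of variation of the tested members, 9.85%. Next were Ugt2b38 with 274, the mu-class transferase Gstm1 with 253, the pi-class transferase Gstp1 with 202, the sulphotransferase Sult1d1 with 195 and Ugt3a1 with 159 FPM per kilobase. The ranges of these neighbours over the kidneys overlapped, as did that of Ugt2b38, 148 to 391, with that of Ugt3a2. Gstt1 (122), Ugt1a7c (108) and Gstm5 (100.0) followed, and 13 members had a median above 100 FPM before division by length. At the other end were Ugt2b34 with 2.79 and the microsomal transferase Mgst2 with 0.122 FPM per kilobase. Counts of near-identical copies are uncertain, because reads may fall to either gene. The share of 100-base windows that also occur in another gene was 50.4% to 70.9% for the Ugt1a transcripts. It was 46.9% for Gstp2, 25.1% for Gstp1 and 24.2% for Ugt2b38. For comparison, it was 0.278% for Ugt2b34, 5.86% for Gstm1 and 0.0% for Ugt3a1, Gstt1 and Gstm7.

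**Figure D1:**
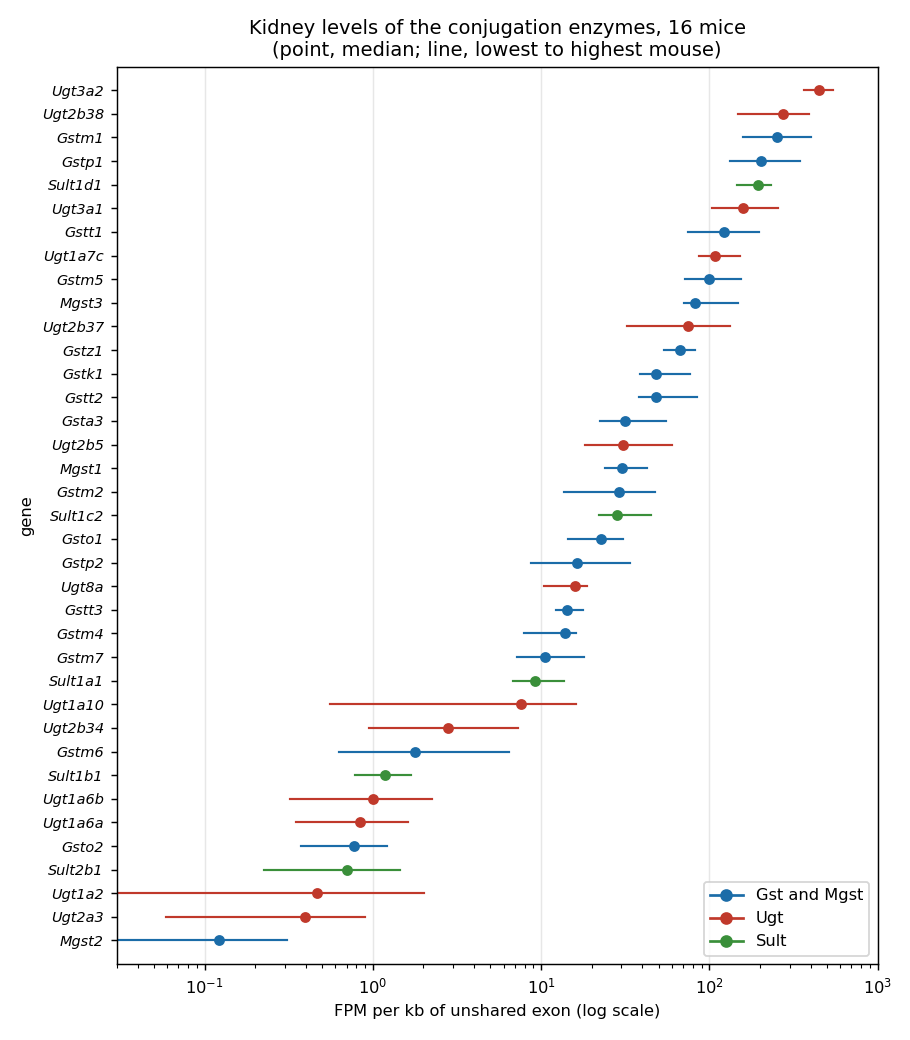
Level of the 37 tested members in kidney, as FPM per kilobase of unshared exon on a log axis, with the median over 16 kidneys (point) and the lowest and highest kidney (line, reaching the left edge where the lowest value is 0). The medians run from 448 for Ugt3a2 to 0.122 for Mgst2.

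HFD feeding changed few of the 37 kidney members. In WT kidneys, 2 members rose (Ugt2b34 and Gstt1; 5.41% of those tested, against 0.778% of all genes called higher) and 1 fell (Ugt3a1; 2.7%, against 0.133% of all genes called lower). In KO kidneys, 1 member rose (Ugt2b34; 2.7%, against 1.53%) and 3 fell (Ugt3a1, Gstm1 and Gstm7; 8.11%, against 0.772%). Where a member was called in 1 genotype, the difference between the genotypes did not pass the test of the interaction. Ugt2b34 was the 1 member in each genotype with an adjusted p under 0.001, the limit used by the study, which 23 of 15034 genes passed in WT and 48 in KO kidneys. Without WT-SFD-1309, WT-HFD-1535 or WT-HFD-1642, the count in WT kidneys was 1 in place of 3. The SFD and HFD kidneys did not overlap for 4 members in WT (10.8%, against 5.01% of all genes) and for 5 in KO (13.5%, against 8.87%). The diet difference had the same sign in both genotypes for 25 of the 37 members. Its median over the members was 0.04 in WT and -0.07 in KO kidneys, with 21 and 15 members above 0, and the median over all genes was -0.004 in both genotypes. Summed over all members, the level was 5991 ± 426 FPM in WT-SFD, 5409 ± 651.5 FPM in WT-HFD, 5748 ± 413 FPM in KO-SFD and 5179 ± 649 FPM in KO-HFD (mean ± SD, n = 4), and the groups overlapped. In whole tissue, fewer cells of a type and less RNA per cell cannot be told apart.

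**Figure D2:**
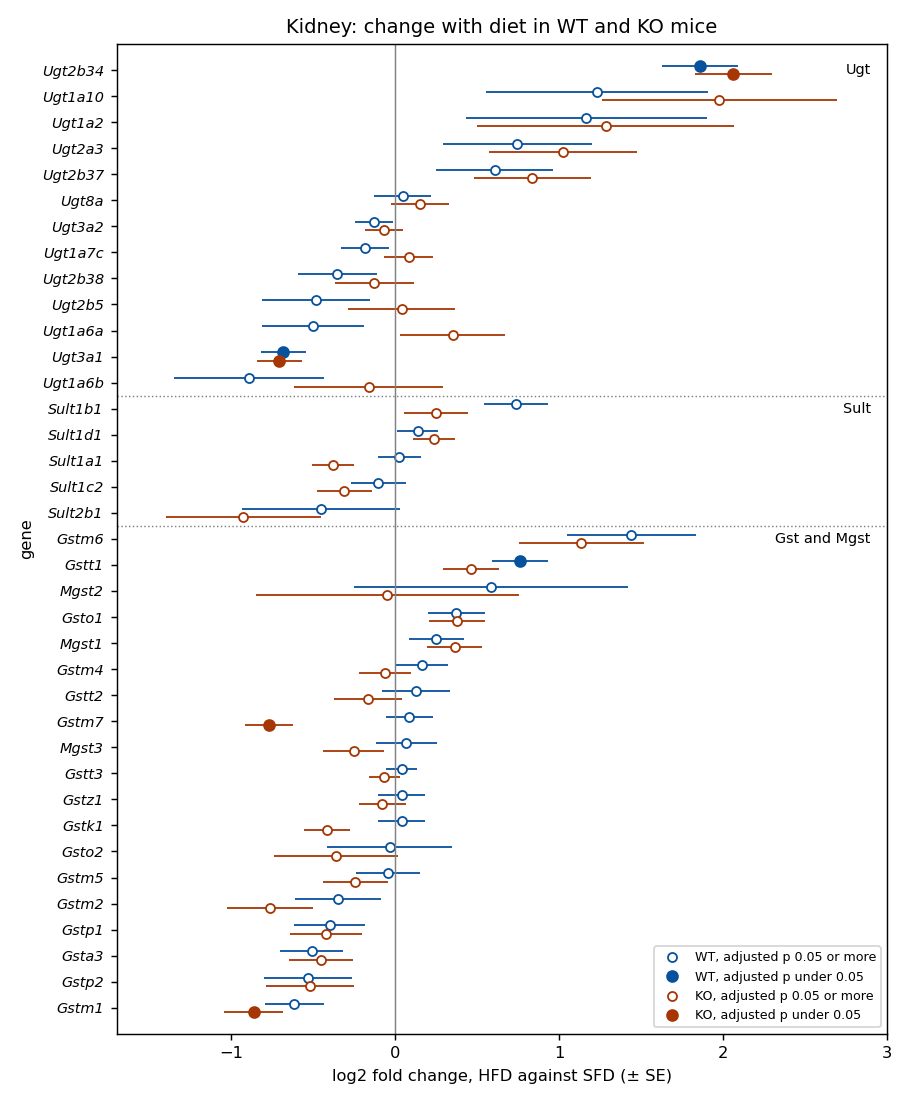
Difference between HFD and SFD kidneys (log2 fold change ± SE, edgeR) in WT and in KO mice for the 37 tested members, with filled symbols for an adjusted p under 0.05. Ugt2b34 stands highest in both genotypes, at 1.86 and 2.06, and Ugt3a1 is filled below 0 in both.

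Of the 13 Ugt genes tested, Ugt2b34 rose and Ugt3a1 fell in both genotypes. Ugt2b34 (ENSMUSG00000029260, chr5:86889767-86906937, minus strand, GRCm38) belongs to the Ugt2 family, whose enzymes glucuronidate steroids, bile acids and drugs. Its levels were 7.37, 4.08, 7.26 and 7.12 FPM in WT-SFD kidneys and 27.6, 23.4, 22.8 and 20.5 FPM in WT-HFD kidneys. KO-SFD kidneys had 7.71, 5.385, 4.24 and 6.99 FPM, and KO-HFD kidneys 16.4, 22.6, 31.6 and 31.1 FPM. All 8 HFD kidneys lay above all 8 SFD kidneys. The group means were 6.46 ± 1.59 on SFD and 23.6 ± 2.95 FPM on HFD in WT mice, and 6.08 ± 1.57 on SFD and 25.4 ± 7.30 FPM on HFD in KO mice (SD, n = 4), HFD to SFD ratios of 3.65 and 4.18. The log2 fold change was 1.86 ± 0.232 (SE, edgeR adjusted p = 0.00055) in WT and 2.06 ± 0.235 (SE, adjusted p = 0.0002) in KO kidneys. Ugt2b34 passed the threshold under each of 15 alternative settings in both genotypes.

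Ugt3a1 (ENSMUSG00000072664, chr15:9276888-9315032, plus strand) encodes a glycosyltransferase that uses UDP-N-acetylglucosamine in place of UDP-glucuronic acid. It had 649, 683, 507 and 586 FPM in WT-SFD and 323, 405, 393 and 389 FPM in WT-HFD kidneys. In KO mice it had 629, 446.5, 555.5 and 572 FPM on SFD and 393, 366.5, 275.5 and 313.5 FPM on HFD. Every HFD kidney lay below every SFD kidney. The mean of WT kidneys was 606 ± 77.5 FPM on SFD and 377 ± 36.8 FPM on HFD, and that of KO kidneys 551 ± 76.1 and 337 ± 52.6 FPM (SD, n = 4). The log2 fold changes were -0.68 ± 0.137 (SE, edgeR adjusted p = 0.0195) and -0.71 ± 0.137 (SE, adjusted p = 0.009). The call in WT was lost without WT-SFD-1309, WT-SFD-1446, WT-HFD-1535 or WT-HFD-1642, with edgeR adjusted p-values of 0.0547 to 0.09, and with library totals in place of TMM factors (edgeR adjusted p = 0.0525). Its neighbour Ugt3a2, which lies 20.5 kb downstream on the same strand and encodes an enzyme that uses UDP-glucose or UDP-xylose, had 1596, 1386, 1350 and 1684 FPM in WT-SFD and 1211, 1492, 1381 and 1418 FPM in WT-HFD kidneys. KO kidneys had 1330, 1358, 1547 and 1396 FPM on SFD and 1285, 1136, 1463 and 1483 FPM on HFD. Its diet log2 fold changes of -0.13 ± 0.116 and -0.07 ± 0.116 (SE) did not pass the test, and all 4 groups overlapped.

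The other 11 Ugt genes were not called in either genotype in the edgeR fit to all groups. Ugt2b34 lies at one end of a cluster on chromosome 5 (chr5:86889767-87591594) that holds 12 members, Sult1b1, Sult1d1 and Sult1e1 among them. For the 7 members of this cluster that were tested, the log2 fold change with HFD lay between -0.48 and 1.86 in WT and between -0.13 and 2.06 in KO kidneys. Ugt2b37 had 64.98 to 216.7 FPM in WT-SFD and 147.5 to 250.7 FPM in WT-HFD kidneys, and differences of 0.61 ± 0.356 and 0.84 ± 0.358 (SE) in WT and KO. Ugt2b38 had 575, 511, 599.5 and 738 FPM in WT-SFD, 279, 550.1, 542 and 526 FPM in WT-HFD, 415, 494, 438 and 703 FPM in KO-SFD and 362, 360, 694 and 463 FPM in KO-HFD kidneys. Its differences were -0.35 ± 0.242 and -0.13 ± 0.242 (SE), and SFD and HFD kidneys overlapped for both genes in both genotypes. The Ugt1a genes lie in a locus on chromosome 1 where alternative first exons are joined to common last exons, and 5 of its 9 members were tested. The most abundant of them, Ugt1a7c, had differences of -0.19 ± 0.148 in WT and 0.08 ± 0.148 in KO kidneys (SE). Ugt1a10 had 1.23 ± 0.677 in WT and 1.98 ± 0.717 in KO kidneys (SE, edgeR adjusted p = 0.186 in KO). Its 4 KO-HFD kidneys, at 4.93 to 9.295 FPM, lay above the 4 KO-SFD kidneys, at 0.983 to 2.40 FPM, whereas WT-SFD kidneys ranged from 0.448 to 13.1 FPM. Ugt1a10 was called in KO kidneys when the KO groups were fitted alone, and in WT kidneys without WT-SFD-1446, the kidney with 13.1 FPM. Ugt8a, which makes galactosylceramide, had 0.04 ± 0.175 and 0.15 ± 0.176 (SE).

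Of the 19 Gst and Mgst genes tested, Gstt1 rose in WT kidneys, and Gstm1 and Gstm7 fell in KO kidneys. Gstt1 (ENSMUSG00000001663, chr10:75783813-75798584, minus strand) is a theta-class enzyme that acts on small halogenated compounds. Its levels were 114.6, 126, 133.5 and 146 FPM in WT-SFD and 192, 275, 203 and 210 FPM in WT-HFD kidneys, without overlap. KO-SFD kidneys had 136, 215.5, 149 and 159 FPM and KO-HFD kidneys 184, 190, 299.7 and 234 FPM, where KO-SFD-1318 lay within the HFD range. The log2 fold change was 0.76 ± 0.171 (SE, edgeR adjusted p = 0.045) in WT and 0.46 ± 0.170 (SE, adjusted p = 0.194) in KO kidneys. The call in WT was lost without any 1 of the 8 WT kidneys, with adjusted p-values of 0.0527 to 0.153. Gstt2 and Gstt3, in the same cluster, had diet differences of 0.12 ± 0.208 and 0.04 ± 0.0944 (SE) in WT and -0.17 ± 0.208 and -0.07 ± 0.0943 (SE) in KO kidneys.

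Gstm1 (ENSMUSG00000058135, chr3:108012255-108017973, minus strand), the most abundant Gst gene of the kidney per length, encodes a mu-class enzyme. It had 342, 471.5, 594 and 541 FPM in WT-SFD, 259, 394, 267 and 352.5 FPM in WT-HFD, 432, 539, 416.5 and 552 FPM in KO-SFD and 325, 232.5, 241 and 269 FPM in KO-HFD. KO-HFD kidneys lay below all KO-SFD kidneys, whereas WT-SFD-1309 lay within the range of the WT-HFD kidneys. The mean in KO mice fell from 485 ± 70.6 to 267 ± 41.7 FPM (SD, n = 4), a log2 fold change of -0.86 ± 0.180 (SE, edgeR adjusted p = 0.0153). In WT mice the means were 487 ± 109 and 318 ± 66.0 FPM (SD, n = 4), with -0.62 ± 0.179 (SE, adjusted p = 0.179), and DESeq2 called Gstm1 in WT kidneys too (adjusted p = 0.039). The call in KO mice was lost without KO-SFD-1318, KO-HFD-1520 or KO-HFD-1558, with adjusted p-values of 0.0512 to 0.055.

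Gstm7 (ENSMUSG00000004035, chr3:107926334-107931817, minus strand), a mu-class gene of the same cluster, had lower levels. It had 16.4, 20.5, 15.3 and 16.2 FPM in WT-SFD and 18.4, 17.7, 16.5 and 19.9 FPM in WT-HFD, groups that overlapped. KO-SFD kidneys had 17.35, 28.8, 22.5 and 19.05 FPM, and KO-HFD kidneys had 11.55, 12.8, 14.4 and 12.7 FPM. The KO-HFD kidneys lay below the kidneys of each of the other groups. The log2 fold change was -0.77 ± 0.145 (SE, edgeR adjusted p = 0.00725) in KO and 0.09 ± 0.143 (SE, adjusted p = 0.984) in WT kidneys. The interaction of diet and genotype, which tests whether the diet difference itself differs between the genotypes, was -0.86 ± 0.203 (SE) with an unadjusted p of 0.00064 and an edgeR adjusted p of 1. The KO against WT difference of Gstm7 was 0.36 ± 0.143 on SFD and -0.495 ± 0.145 on HFD (SE), and neither was called. The fall in KO kidneys passed the threshold under each of 15 alternative settings, with log2 fold changes of -0.93 to -0.61.

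The Gstm cluster on chromosome 3 (chr3:107895821-108044894) holds 7 members, of which 6 were tested, and their log2 fold changes with HFD took both signs, with extremes of -0.62 and 1.44 in WT and of -0.86 and 1.14 in KO kidneys. Gstm6 was the one with the highest values, 1.44 ± 0.395 (SE, edgeR adjusted p = 0.134) in WT and 1.14 ± 0.380 (SE, adjusted p = 0.149) in KO kidneys. It had 1.25 to 2.195 FPM in WT-SFD and 1.875 to 6.43 FPM in WT-HFD. DESeq2 called it in WT, as did edgeR without WT-HFD-1641. Gstm2 had -0.35 ± 0.262 and -0.77 ± 0.262 (SE). Outside the cluster, Gstp1 had 313, 504, 314 and 369 FPM in WT-SFD, 205, 405, 247 and 280 FPM in WT-HFD, 286, 533, 337 and 404 FPM in KO-SFD and 273, 257, 342 and 291 FPM in KO-HFD kidneys. The diets overlapped in both genotypes, with differences of -0.40 ± 0.218 and -0.42 ± 0.219 (SE). The alpha-class gene Gsta3 had -0.51 ± 0.193 and -0.45 ± 0.194 (SE), which did not pass the test. Gstk1, the kappa-class enzyme of mitochondria and peroxisomes, had 0.04 ± 0.141 in WT and -0.42 ± 0.141 (SE, edgeR adjusted p = 0.156) in KO kidneys, where it was called when library totals replaced the TMM factors. Gsto1, which reduces dehydroascorbate, had 0.37 ± 0.171 and 0.38 ± 0.171 (SE), and was called in WT kidneys without WT-SFD-1446. Gstz1, an isomerase of tyrosine breakdown, had 0.04 ± 0.144 and -0.08 ± 0.144 (SE). The median difference of the 19 genes was 0.04 in WT, with 12 above 0, and -0.24 in KO kidneys, with 4 above 0.

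None of the 5 Sult genes tested was called for the diet by edgeR, and 1 in each genotype had an unadjusted p under 0.05, Sult1b1 in WT and Sult1a1 in KO kidneys. At that unadjusted limit, the members of all 3 classes numbered 8 of 37 (21.6%) in WT and 15 of 37 (40.5%) in KO kidneys. Of all genes, 7.9% and 15.8% passed it. DESeq2 called 6 and 4 of the 37 members, against 1.75% and 4.62% of all genes by that tool. The Sult gene that DESeq2 added in WT was Sult1b1, which sulphates thyroid hormones and phenols. It had 2.17, 3.45, 2.53 and 2.285 FPM in WT-SFD and 4.30, 4.59, 3.75 and 4.68 FPM in WT-HFD kidneys, which did not overlap, and its log2 fold change was 0.74 ± 0.195 (SE, edgeR adjusted p = 0.114). It was also called by edgeR in WT kidneys without WT-SFD-1446. In KO mice it had 0.25 ± 0.197 (SE) and overlapping groups. Sult1d1, an enzyme that sulphates catecholamines and the most abundant Sult gene of the kidney, had 504, 482, 448.5 and 503 FPM in WT-SFD, 474.5, 541, 563 and 552 FPM in WT-HFD, 470, 377, 417 and 379 FPM in KO-SFD and 361, 478, 521 and 574 FPM in KO-HFD kidneys. The diets overlapped within each genotype, with log2 fold changes of 0.14 ± 0.126 in WT and 0.24 ± 0.126 in KO kidneys (SE). Sult1c2 had 59.6, 66.0, 43.8 and 42.1 FPM in WT-SFD, 46.0, 47.0, 56.1 and 47.3 FPM in WT-HFD, 49.5, 83.4, 60.3 and 53.8 FPM in KO-SFD and 40.9, 52.2, 51.7 and 54.4 FPM in KO-HFD kidneys. It had differences of -0.10 ± 0.168 and -0.31 ± 0.168 (SE), and Sult2b1, which acts on cholesterol and other sterols, -0.45 ± 0.480 and -0.93 ± 0.472 (SE).

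**Figure D3:**
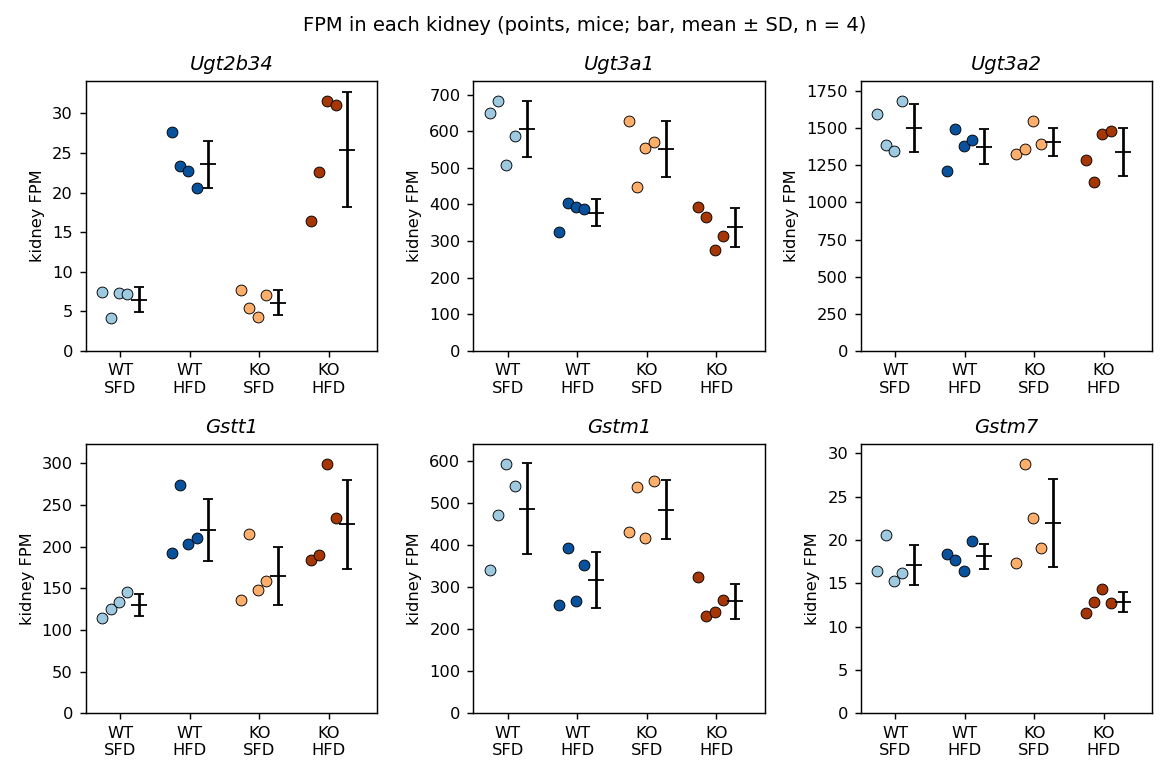
FPM of 6 members in the 16 kidneys by group, with each kidney as a point and the mean ± SD of the group (n = 4). Ugt2b34 separates HFD from SFD kidneys upwards and Ugt3a1 downwards in both genotypes, Ugt3a2 overlaps in all groups, and Gstm7 is lowest in the KO-HFD kidneys.

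Between genotypes, no kidney member was called by edgeR on SFD (background 0.0133% of all genes) or on HFD (0.00665%), and none for the interaction (0%). At an unadjusted p under 0.05 there were 4 members on SFD, 1 on HFD and 3 for the interaction (Gstk1, Gstm7 and Sult1a1), of 37. These are 10.8%, 2.7% and 8.11% of the members, against 8.37%, 1.65% and 3.23% of all genes, and DESeq2 called 1, 0 and 0, against 0.173%, 0.00665% and 0.00665% of all genes. The member that DESeq2 called on SFD was the phenol sulphotransferase Sult1a1 (ENSMUSG00000030711, chr7:126672865-126676432, minus strand). Its levels were 11.65, 13.7, 9.86 and 11.2 FPM in WT-SFD and 18.0, 19.9, 15.0 and 19.4 FPM in KO-SFD kidneys. The KO-SFD kidneys lay above the WT-SFD kidneys, with a log2 difference of 0.65 ± 0.130 (SE, unadjusted p = 0.00014, edgeR adjusted p = 0.301). On HFD the WT kidneys had 13.4, 12.5, 11.02 and 10.2 FPM and the KO kidneys, which overlapped with them, 12.9, 16.2, 13.35 and 13.1 FPM. Its diet difference was 0.02 ± 0.131 in WT and -0.38 ± 0.130 in KO kidneys (SE, edgeR adjusted p = 0.156 in KO). The median KO against WT difference on SFD was 0.30 for the 19 Gst and Mgst genes, with 16 above 0, and -0.24 for the 13 Ugt genes, with 1 above 0. On HFD these medians were 0.02 and -0.01. The circadian clock is the daily timekeeping of cells. The median KO against WT difference of 14 clock genes on SFD was 0.46, with 10 above 0, and 11 had an unadjusted p under 0.05, none was called by edgeR and DESeq2 called 1. The clock repressor Ciart had 2.16 ± 0.487 (SE, edgeR adjusted p = 0.398), the clock output factor Dbp 1.88 ± 0.488 (SE, edgeR adjusted p = 0.453) and the clock activator Arntl -1.38 ± 0.543 (SE, edgeR adjusted p = 0.546). In the same comparison the medians were -0.47 for 6 podocyte markers and -0.43 for 6 markers of the distal convoluted tubule, with 0 above 0 in each, and 0.43 for 6 markers of the loop of Henle, with 6 above 0. They were 1.00 for 10 adipocyte markers, with 9 above 0, 1.57 for 7 brown adipocyte markers, with 7 above 0, and -0.25 for 10 markers of the segments S1 and S2, with 1 above 0. No gene of these 6 lists was called by edgeR or by DESeq2, and 5, 3, 1, 2, 1 and 3 had an unadjusted p under 0.05. The part of the clock and of cell make-up in the medians of the Gst and Ugt genes was not tested. The diet and the genotype comparisons on SFD share the same SFD kidneys.

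The genes that supply and surround these enzymes were counted in 7 lists. None of the 10 tested genes of glutathione synthesis and recycling was called for the diet in either genotype, nor any of 16 genes of the mercapturate path and efflux, of 18 Nrf2 regulators and targets or of 19 xenobiotic and nuclear receptors. At an unadjusted p under 0.05 these 4 lists held 1, 0, 1 and 2 genes in WT and 2, 0, 3 and 1 in KO kidneys, and DESeq2 called 0, 0, 0 and 1 and then 1, 0, 0 and 1. Of all genes, 7.9% and 15.8% passed that unadjusted limit in WT and KO, and DESeq2 called 1.75% and 4.62%. Their median log2 differences in WT and KO kidneys were -0.11 and -0.18 (glutathione), -0.04 and 0.04 (mercapturate), -0.06 and -0.03 (Nrf2) and 0.06 and 0.13 (receptors). Gclc, Keap1, Me1 and Nqo1, which belong to the core of the Nrf2 response, lie in the rows of chromosomes 8 and 9 without counts and were not measured here. Of 11 genes that supply or remove UDP-glucuronic acid, 1 fell in KO kidneys. This was Uxs1, which converts UDP-glucuronic acid to UDP-xylose, with -0.53 ± 0.106 (SE, edgeR adjusted p = 0.0113) in KO and -0.39 (adjusted p = 0.131) in WT kidneys. Of 12 genes of PAPS supply, sulphate transport and sulphatases, 1 rose in WT and 2 rose in KO kidneys. The lysosomal sulphatase Arsa rose in WT by 0.58 ± 0.126 (SE, edgeR adjusted p = 0.0366), at 0.09 in KO. The sodium-sulphate cotransporter Slc13a1 rose in KO by 1.455 ± 0.254 (SE, edgeR adjusted p = 0.00404) and the sulphatase Arsb by 0.975 ± 0.182 (SE, adjusted p = 0.00692). In WT they had 0.52 and 0.29 without passing the test. On SFD, KO against WT was 0.45 ± 0.126 for Arsa, -0.67 ± 0.25 for Slc13a1 and -0.475 ± 0.181 for Arsb (SE), none called.

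Among 22 other conjugating enzymes, 1 rose and 1 fell in each genotype. The gene that rose was Hpgds, a sigma-class glutathione transferase known as haematopoietic prostaglandin D synthase, which the choice by symbol leaves out. It had 1.19, 0.879, 1.54 and 0.851 FPM in WT-SFD, 3.47, 2.14, 2.954 and 3.295 FPM in WT-HFD, 1.11, 0.700, 0.920 and 1.42 FPM in KO-SFD and 2.44, 3.63, 1.835 and 3.015 FPM in KO-HFD kidneys. All HFD kidneys lay above all SFD kidneys, with 1.39 ± 0.277 (SE, edgeR adjusted p = 0.0194) in WT and 1.4 ± 0.282 (SE, adjusted p = 0.0121) in KO. The gene that fell was Acsm3, a medium-chain acyl-CoA synthetase of the family that activates acids for glycine conjugation, with -1.16 ± 0.228 (SE, adjusted p = 0.0179) in WT and -1.03 (adjusted p = 0.0225) in KO kidneys.

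Some markers of tubule segments and of other cell types also passed the test for the diet, few in WT and more in KO kidneys. Of all genes, 0.778% were called higher and 0.133% lower in WT, and 1.53% and 0.772% in KO kidneys. Of 8 tested markers of the last part of the proximal tubule (S3), 1 fell in each genotype, the peroxisomal oxidase Acox2, with -0.58 (edgeR adjusted p = 0.0421) in WT and -0.93 (adjusted p = 0.00079) in KO kidneys. The list's median difference was -0.08 in WT and -0.37 in KO, its most abundant gene was Slc27a2 with a mean of 3443 FPM, and Slc22a13, on chromosome 9, was not measured. Its summed level was 7042, 6043, 6970 and 8688 FPM in WT-SFD, 5495, 7213, 7525 and 7101 FPM in WT-HFD, 6782, 6167, 7402 and 6317 FPM in KO-SFD and 5803, 5320, 5816 and 6418 FPM in KO-HFD. With the mean of the S3 markers as a covariate in the edgeR fit, Ugt2b34 was called in both genotypes and Gstm7 in KO kidneys, whereas the other calls did not pass. Ugt3a1 then had log2 fold changes of -0.57 in WT (adjusted p = 0.159; -0.68 without the covariate) and -0.55 in KO (adjusted p = 0.173; -0.71 without). Gstt1 had 0.74 in WT (adjusted p = 0.202; 0.76 without) and Gstm1 -0.69 in KO (adjusted p = 0.195; -0.86 without), so all of these kept their direction. All genes called with the covariate numbered 62 in WT and 114 in KO kidneys, in place of 137 and 346. Of 10 markers of the earlier segments S1 and S2, 1 rose in WT (the glucose transporter Slc5a2) and 5 rose in KO kidneys (Slc5a2, Slc7a7, Gatm, Slc4a4 and Slc5a12), with medians of 0.275 and 0.55. The loop of Henle list had medians of -0.21 and -0.77 with none called by edgeR (0 and 6 of 6 at an unadjusted p under 0.05, and 0 and 1 by DESeq2). The list of tubule injury had medians of 0.25 in WT and 0.13 in KO, with 3 and 5 of 6 tested genes above 0. In each genotype 1 of them was called, Sox9, with 2.21 and 2.89. Of 6 markers of the distal convoluted tubule, 2 rose in KO kidneys, Slc12a3 with 0.71 (edgeR adjusted p = 0.0127) and Pvalb with 1.57 (adjusted p = 0.00226), and the list's medians were -0.28 in WT and 0.38 in KO. Of 4 tested liver markers, 1 rose in each genotype, Ttr, with 1.55 (adjusted p = 0.0122) in WT and 2.33 (adjusted p = 4.4e-04) in KO, and the medians were 0.63 and 0.44. Of 10 adipocyte markers, 1 rose in KO kidneys, Lep, with 4.97 (adjusted p = 0.00902), while the list's medians were -0.57 and -1.02. Other lists had no gene called by edgeR for the diet. The 8 collecting duct markers had medians of -0.35 in WT, with 0 above 0, and -0.12 in KO kidneys (2 and 0 at an unadjusted p under 0.05, and 2 and 0 by DESeq2). The 8 leucocyte markers had medians of 0.35 in WT, with 8 above 0, and 0.07 in KO (2 and 2 at the unadjusted limit, 0 and 1 by DESeq2). The 6 podocyte markers had medians of 0.055 in WT and 0.47 in KO, with 6 above 0 in KO (0 and 5 at the unadjusted limit, 0 and 0 by DESeq2). The 7 brown adipocyte markers had medians of -0.008 in WT and -0.76 in KO, with 0 above 0 in KO (0 and 0 at the unadjusted limit, 0 and 0 by DESeq2). The 14 genes of the circadian clock had medians of 0.54 in WT, with 10 above 0, and -0.12 in KO. At the unadjusted limit 4 and 2 of them passed, and DESeq2 called 0 and 1. Clock genes took opposite signs in WT, such as Per2 with 1.2 and Npas2 with -1.45, which a median does not show. The part of cell and segment make-up in the differences of the members was not tested. The S3 covariate was the mean RNA of markers in the same kidneys, with Acox2 among them called for the diet. The fit with it therefore cannot tell fewer S3 cells from less RNA per S3 cell.

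In the aorta, 20 of the 63 members were tested, 17 Gst and Mgst genes, the glycosyltransferases Ugt1a7c and Ugt8a, and Sult1a1. All 20 were also tested in the kidney. Of the other 43, 22 had no count in any aorta, Gsta1, Gsta2, Gsta4 and Sult5a1 among them, and 21 had too few. Gstm1 was the most abundant, at a median of 82.7 FPM per kilobase with a range of 72.8 to 93.7, and the 1 member with a median above 100 FPM. It had 107 to 138 FPM in the 14 aortae, and its diet differences were 0.04 ± 0.0956 in WT and 0.00 ± 0.0953 in KO (SE). Gstm2 (25.2), Gstp1 (23.7), Gstt1 (12.9), Sult1a1 (11.7) and Gstp2 (10.97 FPM per kilobase) followed. The ranges of Gstm2 and Gstp1, and those of Gstt1, Sult1a1 and Gstp2, overlapped.

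No aortic member was called by edgeR for HFD against SFD in WT (0% of all genes) or in KO (0%), for KO against WT on SFD (0.0811%) or on HFD (0.0811%), or for the interaction (0%). At an unadjusted p under 0.05 there were 7, 6, 0, 0 and 1 of the 20 members in these comparisons, or 35%, 30%, 0%, 0% and 5%, against 16.7%, 7.47%, 6.14%, 5.04% and 4.1% of all genes. DESeq2 called 4 in the first (Gstz1, Mgst1, Mgst3 and Sult1a1) and 0 in the others, against 4.5%, 0.0587%, 0.142%, 0.27% and 0.0135% of all genes by that tool. Without WT-SFD-1445, edgeR called 7 members in the first, among 1801 genes called in all (11.7%). SFD and HFD aortae did not overlap for 1 member in WT (Sult1a1; 5%, against 8.96% of all genes) and for 3 in KO (Gsta3, Gstk1 and Mgst3; 15%, against 7.04%). The median diet difference of the 20 members was -0.52 in WT and -0.44 in KO aortae, with 5 above 0 in each, and that of all genes -0.012 and -0.0016. Mgst1 (ENSMUSG00000008540, chr6:138140316-138156755, plus strand), a membrane-bound transferase and peroxidase, had 110.6, 79.3 and 10.1 FPM in WT-SFD, 9.365, 7.62, 10.7 and 12.5 FPM in WT-HFD, 80.5, 35.7 and 9.68 FPM in KO-SFD and 7.44, 11.6, 7.90 and 7.645 FPM in KO-HFD. Within each genotype, 1 of the 3 SFD aortae lay within the HFD range, and the other two were several times higher. The log2 fold change was -2.74 ± 0.641 (SE, edgeR adjusted p = 0.078) in WT and -2.26 ± 0.645 (SE, adjusted p = 0.556) in KO aortae. Gstz1, with 85.4, 62.0 and 11.4 FPM in WT-SFD and 11.03 to 16.6 FPM in WT-HFD, had -1.95 ± 0.530 (SE, adjusted p = 0.0847) in WT. Sult1a1 had 34.6, 34.6 and 20.0 FPM in WT-SFD and 10.7, 9.83, 13.9 and 11.6 FPM in WT-HFD, with -1.37 ± 0.248 (SE, edgeR adjusted p = 0.078). In KO aortae it had 33.15, 16.4 and 20.3 FPM on SFD and 17.45, 19.96, 14.4 and 12.4 FPM on HFD, with -0.53 ± 0.247 (SE, adjusted p = 0.665). The interaction for Sult1a1 was 0.84 on the log2 scale and did not pass the test. Ugt1a7c, the Ugt gene with the smallest p in aorta, had 2.315, 1.02 and 1.44 FPM in WT-SFD, 1.32, 0.501, 0.624 and 0 FPM in WT-HFD, 2.67, 0.556 and 0.724 FPM in KO-SFD and 0.244, 0.750, 0.399 and 0.683 FPM in KO-HFD. The groups overlapped, and the differences were -1.31 ± 0.722 and -1.30 ± 0.747 (SE). The 7 lists of surrounding genes had no gene called by edgeR for the diet in aortae. At an unadjusted p under 0.05 they held 1 to 7 genes each in WT and 0 to 3 in KO. DESeq2 called 3 of 13 xenobiotic and nuclear receptors, 4 of 17 other conjugating enzymes, 2 of 11 genes of UDP-glucuronic acid supply and 1 of 11 of the mercapturate path in WT and none in KO aortae, against the 4.5% and 0.0587% of all genes above.

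The aortae that were high in Mgst1 and Gstz1 were also high in adipocyte markers. The summed level of the 10 markers was 4084, 3191 and 145 FPM in WT-SFD, 164, 152, 259 and 230 FPM in WT-HFD, 2553, 950 and 165 FPM in KO-SFD and 117, 199.0, 158.0 and 96.8 FPM in KO-HFD. All 10 were tested and none was called by edgeR, while 9 had an unadjusted p under 0.05 in each genotype and DESeq2 called 9 in WT and 1 in KO, with median diet differences of -3.645 in WT and -3.43 in KO aortae, and the most abundant was Fabp4 with a mean of 289.9 FPM. The 8 markers of brown adipocytes had medians of -3.74 and -2.975. The 4 SFD aortae with a mean marker level above 5 on the log2 CPM scale were WT-SFD-1309, WT-SFD-1310, KO-SFD-1319 and KO-SFD-1452. With the adipocyte marker mean as a covariate, the diet difference in WT aortae was -0.40 for Mgst1 and -0.88 for Sult1a1, and in KO aortae it was -0.04 for Mgst1 and -0.06 for Sult1a1. Without those 4 aortae, which leaves 1 SFD aorta in each genotype, it was -0.01 for Mgst1 and -0.795 for Sult1a1 in WT (edgeR adjusted p = 0.712) and -0.155 for Mgst1 and -0.33 for Sult1a1 in KO, under the assumption that the lone aorta varies like the other groups. KO-SFD-1452 had high adipocyte markers with 16.4 FPM of Sult1a1 and 7.23 FPM of Gsto1, both within the range of the HFD aortae.

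**Figure D4:**
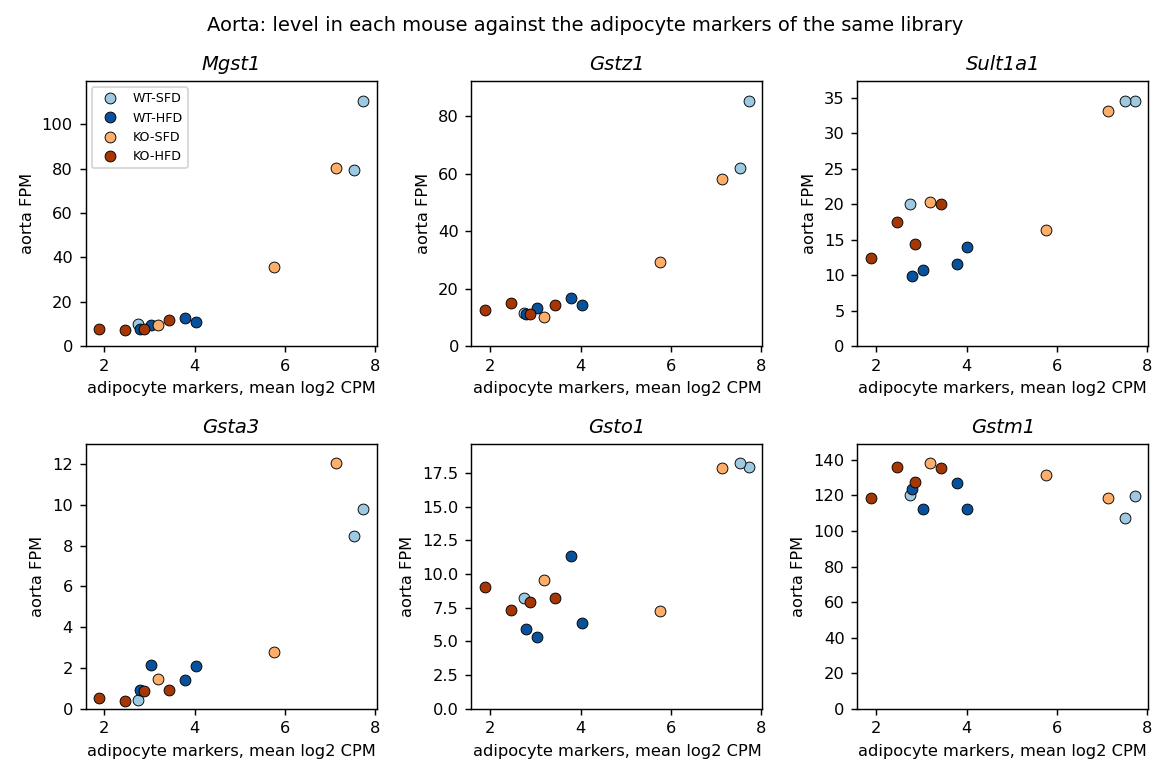
FPM of 6 members in each of the 14 aortae against the mean log2 CPM of the adipocyte markers in the same aorta, by group. Mgst1 and Gstz1 are highest in the 4 SFD aortae with marker means above 5, and Gstm1 lies between 107 and 138 FPM throughout.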

How the data were processed

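The authors rRNA-depleted total RNA, sequenced it paired-end, aligned the reads to mm10 with TopHat and counted them per gene with featureCounts, according to the submitters' notes. The deposited values are raw counts per gene, 1 table for each tissue. Strand setting, counting annotation and treatment of reads with several matches are not given in the sources used here. The tissues were sequenced separately and were fitted apart.

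Counts were tested with edgeR 4.0.16 (TMM, filterByExpr, quasi-likelihood F test, 4 groups in 1 fit, Benjamini-Hochberg adjustment over 15034 kidney and 14796 aorta genes). FPM is the count divided by library size times the TMM factor, on the CPM scale. Lengths, gene positions and shared windows came from GENCODE vM21 on GRCm38, promoters from RefSeq (GRCm38.p6). DESeq2 1.42.0, RLE factors, library totals, no filter, protein-coding genes, marker covariates, the compared groups alone and leaving out each library were alternatives. The fit was also run on simulated data, and no result given here rests on that run. Each library is 1 mouse. Named with every value were the called members, the 3 most abundant kidney members of each class per length and Egfr in aortae. So was the member of each class with the smallest p in each tissue and diet comparison. Egfr in kidneys was given as ranges, and Sult1b1 in KO kidneys without its levels. Up to 4 called genes of each list of surrounding genes and every called marker were named too. Other members named were chosen after their values were seen. The members and lists were chosen with earlier results of these data known.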

Additional observations from a re-analysis of the deposited data

Results flagged for a closer look

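Groups of 4 libraries were examined for 12 kidney and 3 aortic members, and other members were not examined. Of these 54 groups, 5 held a library that stood apart from the other 3, where chance gives about 1 in 20. In kidney, Ugt2b34 had 4.081 FPM in WT-SFD-1446, against 7.123 to 7.368 FPM in the other WT-SFD kidneys. Ugt2b38 had 279.0 FPM in WT-HFD-1535, against 525.7 to 550.1 FPM, and this kidney also had the lowest mean of the S3 markers, 7.94 on the log2 CPM scale. Sult1c2 had 56.12 FPM in WT-HFD-1641, against 45.96 to 47.28 FPM, and Sult1a1 had 16.17 FPM in KO-HFD-1504, against 12.9 to 13.35 FPM. In aorta, Mgst1 had 11.62 FPM in KO-HFD-1503, against 7.443 to 7.903 FPM. The cause of these values was not tested.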

How the results depend on the processing

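Of 559 values under alternatives, 514 kept their direction and side of the threshold, 20 lost the threshold, 11 gained it and 14 changed sign. These values are the diet differences of 12 kidney and 3 aortic members and the kidney interaction of the called members. Calls gained by other members, such as Ugt1a10, Gstk1 and Gstm6, are not among them. Values that were not called counted as kept when they stayed uncalled with the same sign, so only called values could lose the threshold. Gstt1 in WT lost it in 9 of 15 alternatives, Ugt3a1 in WT in 6, Gstm1 in KO in 4 and Ugt3a1 in KO in 1. Ugt2b34 in both genotypes and Gstm7 in KO lost it in none. The 3 members called for the diet in WT kidneys became 6 with DESeq2, 2 with library totals (Gstt1 and Ugt2b34), 1 with the S3 marker mean as covariate (where Gstt1 had 0.74 and Ugt3a1 -0.57, against 0.76 and -0.68), 1 at an adjusted p under 0.001, and 1 to 4 when 1 library was left out (1 without WT-SFD-1309, WT-HFD-1535 or WT-HFD-1642). The 4 called in KO kidneys became 5 with library totals (Gstk1 added) and 5 with the KO groups alone (Ugt1a10 added), 2 with the covariate, 1 under 0.001, and 3 to 4 when 1 library was left out. KO against WT on SFD gave 1 with DESeq2 in place of 0. In WT aortae the count of 0 became 4 with DESeq2, 2 with library totals, 3 with no filter, and 0 to 7 when 1 library was left out (7 members among 1801 genes without WT-SFD-1445, which had low levels of adipocyte markers). Library totals moved the median of all aortic genes by 0.113 in WT and -0.106 in KO for the diet and by 0.293 for KO against WT on SFD, where 13 of 20 members were then above 0 in place of 4. Without the low-count filter, 527 aortic genes were called for the diet in WT, and with DESeq2 666, in place of 0. In kidney, all genes called numbered 137 in WT (62 to 263) and 346 in KO (114 to 695).

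Signs changed for uncalled values near 0. With the S3 covariate the diet difference became -0.034 for Gstm7 and -0.103 for Sult1a1 in WT, 0.048 for Ugt3a2 and 0.175 for Ugt2b38 in KO, and the interaction of Ugt3a1 0.024. When 1 library was left out, the difference ranged from -0.2 to 0.017 for Sult1c2 and from -0.051 to 0.111 for Sult1a1 in WT and from -0.366 to 0.064 for Ugt2b38 in KO, and the interaction of Ugt3a1 from -0.112 to 0.074. Ugt3a1 in WT kidneys lost its call in 6 of 15 alternatives, with adjusted p-values up to 0.159, and in KO kidneys with the covariate. The causes were not tested. No paired analysis was possible because the groups of a tissue come from different mice and share no replicate number in the labels. Low counts limit Ugt1a2, Mgst2 and Ugt2a3 in kidney, whose medians lie below 1 FPM.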
